A study of Mus musculus with 10 samples.

Results

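The mitochondrial ribosomal protein genes were taken as those genes of the authors' expression matrix whose symbol is Mrpl or Mrps followed by a number and at most one letter. The rule found 78 of the 15686 genes of the matrix, 49 with an Mrpl and 29 with an Mrps symbol, and 0 further genes of the count tables carried such a name outside the matrix. The mitochondrial ribosome translates the proteins encoded by mitochondrial DNA, which are subunits of the respiratory chain and the ATP synthase. Its RNA comes from mitochondrial DNA, whereas its proteins are encoded in the nucleus, made in the cytosol and imported, so the transcripts of many scattered nuclear genes have to be available together for one particle to be built. By their known place in the particle, 26 of the 78 belong to the small subunit, which reads the mRNA, and 51 to the large subunit, which joins the amino acids. The remaining member, Mrps36, carries the name but belongs to the 2-oxoglutarate dehydrogenase complex. The 78 genes lie on 17 chromosomes, with at most 11 on one, and their summed exon length ran from 607 to 8631 bp with a median of 2394 bp.

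Nuclear RNA was sequenced from 5 stages of the blood differentiation of HM-1 mouse ES cells in serum, with 2 libraries per stage. ES are the undifferentiated cells, kept on gelatin with LIF. HB, the hemangioblast, are cells bearing FLK1 that were sorted from embryoid bodies after 3 d. The later populations came from blast cultures of HB, and all bear KIT. HE1, the early hemogenic endothelium, has TIE2 and lacks CD41. HE2, the late hemogenic endothelium, has both surface proteins, and HP, the hematopoietic progenitors, have CD41 but no longer TIE2. All stages derive from a single cell line, and each stage has 2 libraries, which the study describes as independent biological replicates. The labels name no separate cultures for them, and the p-values below measure the spread between these libraries.

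The libraries held between 24920434 and 58782055 counted fragments, and the lowest count of any member in any library was 106. The markers of ES stood with their labels. The summed HB, HE2 and HP markers overlapped between adjoining stages, although some single markers parted these stages. The 5 ES markers summed to 2266 and 2226 CPM (counts scaled to library size, with TMM factors) in ES, and Kdr, which encodes FLK1, measured 957 and 1284 CPM in HB against 2.43 and 2.70 CPM in ES. The 4 HB markers, however, summed to 1350 and 1721 CPM in HB and to 1461 and 838 CPM in HE1. Of these 4, Kdr and Tal1 overlapped between the stages, whereas Pdgfra and Etv2 did not. Pdgfra measured 193 and 196 CPM in HB and 6.52 and 6.01 CPM in HE1, and Etv2 55.6 and 69.5 against 3.79 and 5.25 CPM. The 5 markers of HE1 and endothelium summed to 294 and 263 CPM in HB and to 2983 and 1734 CPM in HE1. The 5 HE2 markers reached 1330 and 1570 CPM in HE2 beside 1358 and 1103 CPM in HP, and the 5 HP markers 806 and 1029 CPM in HE2 beside 967 and 781 CPM in HP. Singly, Kit, Runx1, Spi1 and Gfi1b overlapped between HE2 and HP. Tek, Itga2b and Gfi1 were higher in both HE2 libraries, and Ptprc was higher in both HP libraries. Tek measured 285 and 159 CPM in HE2 and 61.5 and 64.2 CPM in HP, and Ptprc 9.87 and 18.2 against 38.7 and 47.3 CPM. Replicate 2 of HE1 stood apart from replicate 1, with a sum of 79.3 against 6.81 CPM for the ES markers and 1661 against 843 CPM for the 5 mesenchyme and smooth muscle markers. The 3 cardiac markers summed to 79.7 against 20.7 CPM. Most of that sum was Tnnt2, with 74.2 against 16.0 CPM, beside 1.42 against 0.379 CPM for Myl7 and 4.03 against 4.33 CPM for Nkx2-5. The 4 erythroid markers summed to 4224 CPM in HP replicate 1 and 2249 CPM in HP replicate 2. In such bulk samples, fewer cells of a type and less RNA per cell cannot be told apart.

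The members were expressed at moderate and rather even levels. Their mean over the 10 libraries ran from 6.97 CPM, for Mrps36, to 82.6 CPM, for Mrpl12, which encodes the protein of the large subunit stalk that contacts the translation factors, with a median of 30.8 CPM. Per kilobase of exon the highest level was that of Mrpl34, with 60.5 CPM per kb, and the lowest that of Mrpl48, with 2.27 CPM per kb. Both encode proteins of the large subunit. Mrpl12 came next to Mrpl34 with 53.9 CPM per kb. Since nuclear RNA was counted on exons, these levels describe the transcripts held in the nucleus.

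As a group the members moved little from ES to HB, were lowest in HE1 and were higher again in HE2 and HP. To place the libraries on one scale, the log2 CPM of each member was centred on its mean over the 10 libraries and the median over the 78 members was taken. For ES this median stood at -0.02 and -0.08 in the respective replicates, and for HB at -0.11 and 0.13. Both HE1 libraries gave -0.30. The values of HE2 were 0.01 and 0.31, while HP gave 0.37 and -0.07. The HE1 libraries were thus the lowest of the 10 and nearly equal to each other, although they differed in the markers named above. The 2 HP libraries were the farthest apart of any pair, and HP replicate 2 lay within the range of the ES and HB libraries. In summed CPM, the members made up between 2136 CPM, in HE1 replicate 2, and 3272 CPM, in HP replicate 1.

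**Figure D1:**
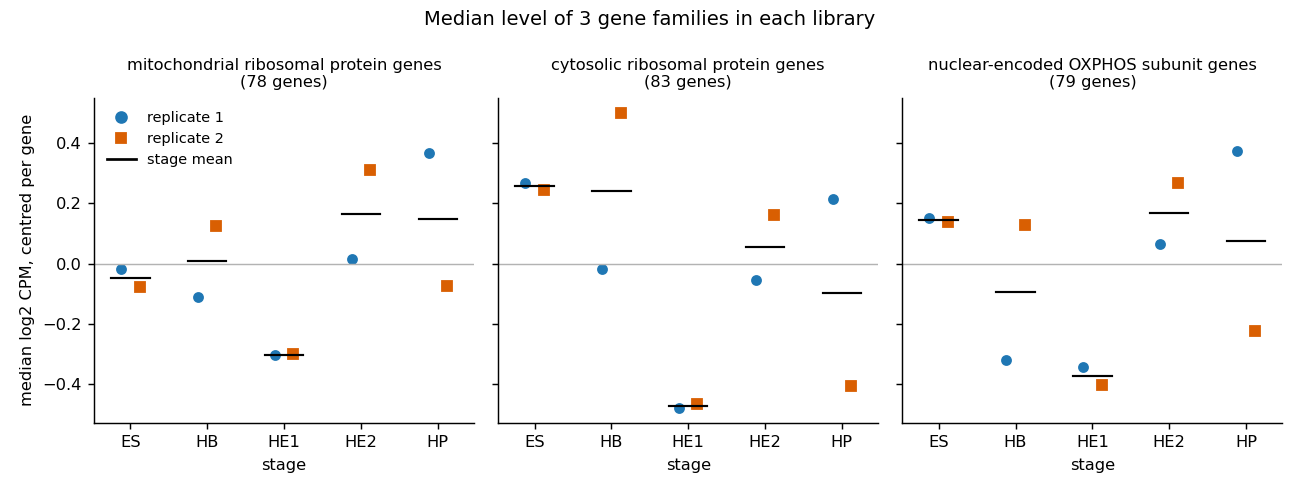
Median of the centred log2 CPM (y axis, log2 units) in each library of the 5 stages (x axis) for the 78 mitochondrial ribosomal protein genes, the 83 cytosolic ribosomal protein genes and the 79 nuclear genes of OXPHOS subunits. Circles and squares are the 2 replicates and bars their mean. The members lie at -0.30 in both HE1 libraries and at 0.37 and -0.07 in the HP libraries, and the replicates of HB, HE2 and HP part in the same direction in each of the 3 families.

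The gap between replicates ran through nearly the whole group. In HP, 3 of the 78 members were higher in replicate 2 than in replicate 1, against 74 of 78 in HB and 73 of 78 in HE2. The same split was seen in the genes of the cytosolic ribosome, of which 1 of 83 was higher in HP replicate 2, and in those of the OXPHOS subunits, of which 0 of 79 was. The median gap of replicate 2 minus replicate 1 in HP was -0.44 log2 units for the members, -0.62 for the cytosolic ribosomal proteins and -0.60 for the OXPHOS subunits. The pooled standard deviation of the member median between replicates was 0.18 log2 units.

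Single members were tested with edgeR's quasi-likelihood test over the 22596 genes that passed the filter on low counts, which included the 78 members, and were called at an adjusted p below 0.05 (Benjamini-Hochberg). The median standard error of a member's log2 change was 0.20. Over the 5 stages 41 of the 78 members, or 52.6%, changed, whereas 66.7% of all genes tested did. The median range of a member's profile, from its lowest to its highest stage, was 0.73 log2 units, against 1.56 over all genes tested. The number of members that changed was 25 without either ES replicate. In the 6 comparisons below, 28 members were called in none.

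From ES to HB, 7 members rose and 5 fell, and the median change of the 78 was 0.10 log2 units. Of all genes tested, 17.8% were higher in HB and 22.6% lower, so in this fit the share of members called was below the background in both directions. Among the called, the largest rises were those of Mrps6, a small subunit protein, with a log2 change of 0.84 ± 0.18 (SE) and an adjusted p of 0.00401, Mrpl12 with 0.83 ± 0.20 and Mrpl23 with 0.71 ± 0.20. The largest falls among the called were those of Mrpl33, by 1.06 ± 0.20, Mrps18b, by 0.92 ± 0.16, and Mrpl42, by 0.65 ± 0.22 on the log2 scale. That of Mrpl42 was not called with the replicate number as a block. With the library totals in place of TMM the split was 15 higher and 5 lower. The rises numbered 2 without ES replicate 1 and 1 without ES replicate 2 or HB replicate 2, and the falls 2 without either ES replicate or HB replicate 1 and 9 without either HP replicate.

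From HB to HE1, 14 members fell and 2 rose, with a median change of -0.28 log2 units, against 0.04 over all genes tested and -0.02 over those of the matrix. Of all genes, 14.8% were lower in HE1, near the 17.9% of the members, and 17.5% were higher, against 2.56% of the members. The deepest falls among the called were those of Mrpl24, by 1.03 ± 0.14 on the log2 scale with an adjusted p of 0.000466, of Mrpl23, by 1.02 ± 0.21, and of Mrps27, by 0.79 ± 0.18. Mrpl24 and Mrpl23 encode large subunit proteins with bacterial counterparts, and Mrps27 a protein found in the mitochondrial particle alone. Mrpl23 measured 30.3 and 36.8 CPM in HB and 15.5 and 17.5 CPM in HE1, so that it rose into HB and fell back in the following step. When one library was left out, its log2 change ran from 0.56 to 0.87 from ES to HB and from -1.22 to -0.92 from HB to HE1. The 2 members that rose were Mrps18a, by 0.67 ± 0.16, and Mrps6, by 0.62 ± 0.18. Neither rise was called without HB replicate 1, HB replicate 2 or HE1 replicate 2, and that of Mrps6 was not called without either ES replicate. The count of members that fell was 4 without HB replicate 2, 4 without HE1 replicate 2 and 9 without either ES replicate.

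From HE1 to HE2 the sign of the difference was shared by nearly the whole group. Its median was 0.47 log2 units, 75 of the 78 values were positive, and in 68 members both HE2 libraries lay above both HE1 libraries. Over all genes tested the median was -0.08, the change was positive for 45.5%, and both HE2 libraries lay above both HE1 libraries for 28.8%. Nevertheless only 10 members were called higher and 1, Mrps18a, lower, beside 6.12% and 7.12% of all genes, which is 12.8% and 1.28% of the members. The largest rises among the called were those of Mrpl14 with 0.87 ± 0.24, Mrps16 with 0.85 ± 0.23 and Mrpl18 with 0.84 ± 0.24, all of them proteins with bacterial counterparts. Mrpl14 measured 12.2 and 13.2 CPM in HE1 and 22.0 and 24.5 CPM in HE2. The calls depended on single libraries: 0 members were called higher without ES replicate 1, ES replicate 2, HE1 replicate 2 or HE2 replicate 2, 1 without HB replicate 2, 3 without HB replicate 1 and 30 without HE2 replicate 1, and 0 were with the replicate number as a block or with the 4 libraries of these stages alone. The median stayed between 0.29 and 0.62 when one library was left out.

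From HE2 to HP no member passed the test. The count of members called by edgeR was 0 in each direction, as it was with limma-voom and DESeq2, and 0 of the 78 reached an unadjusted p below 0.05. The share of all genes called by edgeR was likewise 0% in both directions and at least 2-fold, while 1783 genes, or 7.89%, had an unadjusted p below 0.05. The median change of the members was -0.02 log2 units, and it was -0.26 without HP replicate 1 and 0.18 without HP replicate 2.

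Across the whole passage from HE1 to HP, 18 members rose and 2 fell, and the median change was 0.43 log2 units. Of all genes 11.0% were higher and 13.9% lower in HP, so that the members rose at 23.1% and fell at 2.56%. The largest rises were those of 3 large subunit proteins, Mrpl57 with 0.86 ± 0.24, Mrpl32 with 0.86 ± 0.21 and Mrpl36 with 0.85 ± 0.25. Mrpl32 measured 15.8 and 11.3 CPM in HE1 and 26.9 and 22.1 CPM in HP. The 2 that fell were Mrps6, by 0.91 ± 0.18, and Mrps18a, by 0.73 ± 0.16. This count also rested on the HP libraries, with 0 members higher and 0 lower without HP replicate 1 and 32 higher and 1 lower without HP replicate 2, and it was 3 without HE1 replicate 2 and 11 without HE1 replicate 1 or either ES replicate. The erythroid marker sum was higher in HP replicate 1 than in replicate 2, as was the member median, whereas in HE2 it was 1957 CPM in replicate 1 and 1555 CPM in replicate 2 and the member median was higher in replicate 2. The mesenchyme and smooth muscle markers also parted the HP libraries, with 1178 CPM in replicate 1 and 575 CPM in replicate 2. The part of these markers in the results was not tested.

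Between the ends of the series, HP and ES, 22 members were higher and 10 lower, with a median of 0.23 log2 units. The background was 24.1% higher and 27.5% lower over all genes, beside 28.2% and 12.8% of the members. A change of at least 2-fold was passed by 5 of the 78, against 38.7% of all genes. The 5 were Mrpl58, Mrpl27, Mrps26, Mrpl38 and Mrps7, and each of them was higher in HP. In the other comparisons 1 member passed 2-fold from ES to HB, namely Mrpl33, and 2 from HB to HE1, namely Mrpl24 and Mrpl23, against 28.8% and 20.9% of all genes. From HE1 to HE2 and from HE1 to HP the members called did not reach 2-fold, against 8.65% and 16.5%. The median change from ES to HP was 0.42 without HP replicate 2 and -0.00742 without HP replicate 1, and the count of members called higher was 7 without HP replicate 1, 8 without ES replicate 2 and 11 without ES replicate 1. As for those called lower, their number was 3 without HP replicate 2 and 4 without either ES replicate.

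**Figure D2:**
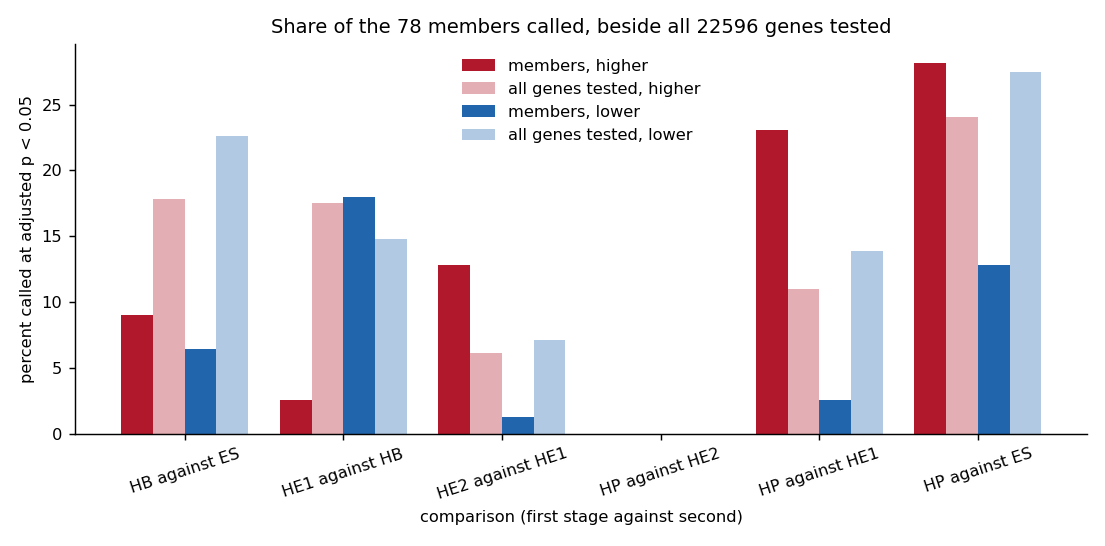
Share of the 78 members (full colour) and of the 22596 genes tested (pale) that were called at an adjusted p below 0.05 (y axis, percent) in each of the 6 comparisons (x axis), higher in red and lower in blue. The share of members called higher is above that of all genes from HE1 to HE2, from HE1 to HP and, with 28.2% against 24.1%, from ES to HP, and both shares are below it from ES to HB, where 8.97% rose and 6.41% fell.

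The HE1 stage held the lowest stage mean of 48 members, ES of 22, HB of 6, HP of 2 and HE2 of 0. For 29 members, including Mrpl11, Mrpl24, Mrps16 and Mrps35, both HE1 libraries were the lowest 2 of the 10, which was so for 9.60% of all genes tested. Both ES libraries were the lowest 2 for 16 members and the highest 2 for 11, shares that were close to those over all genes for the former (19.4%) and below them for the latter (26.3%). Mrps18a and Mrps6 were the only members for which both HE1 libraries were the highest 2.

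**Figure D3:**
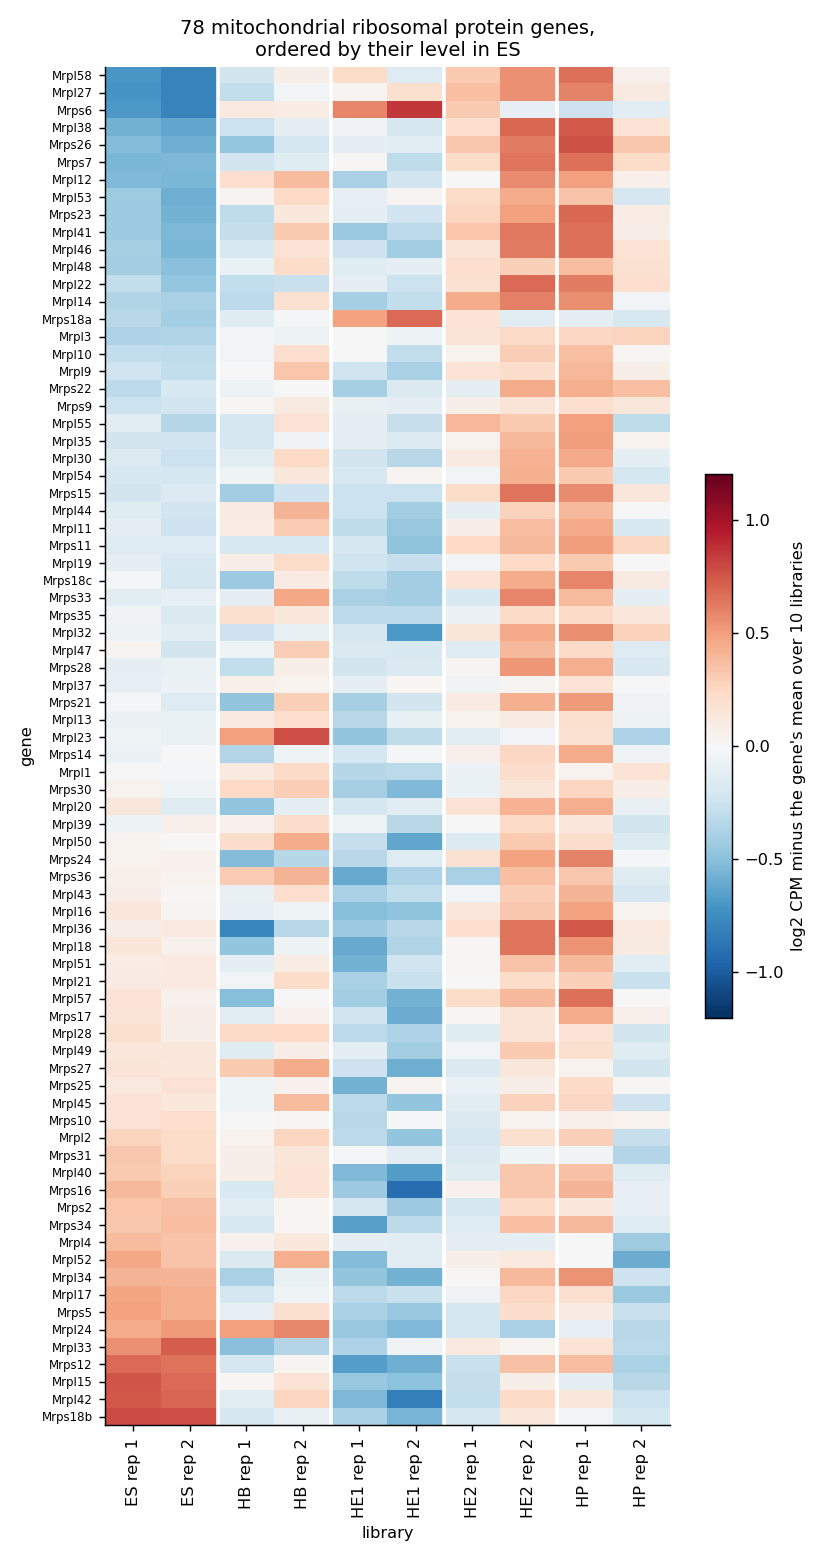
Log2 CPM of each of the 78 members (rows, ordered by their level in ES) in the 10 libraries (columns), less the mean of the gene over the libraries, from blue (lower) to red (higher). The HE1 columns are mostly blue except for Mrps6 and Mrps18a, HE2 replicate 2 and HP replicate 1 are mostly red, and the ES columns run from blue at the top to red at the bottom.

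Short genes behaved differently from long ones in these libraries, and the members are short. Over the genes of the matrix with a mean log2 CPM above 3, the median change from HE1 to HE2 was 0.60 for exon lengths up to 1 kb, 0.35 for 1 to 2 kb, 0.29 for 2 to 3 kb, 0.18 for 3 to 5 kb, 0.10 for 5 to 8 kb and -0.04 above 8 kb. The difference between the 2 HP libraries ran along the same axis, from -0.58 in the shortest class to 0.10 in the longest. The members followed part of this slope: their median change from HE1 to HE2 was 0.58 up to 1 kb, 0.55 from 1 to 2 kb, 0.49 from 2 to 3 kb, 0.41 from 3 to 5 kb, 0.32 from 5 to 8 kb and 0.38 above 8 kb. They lay above the genes of the matrix in each class but the shortest, which held 9 members. From HB to HE1 they lay below them in each class but the shortest, for instance at -0.30 against -0.02 for 5 to 8 kb. When a smooth trend on exon length was taken out of each library, which was an alternative chosen after seeing the data, the median of the members was -0.17 from HB to HE1 and 0.22 from HE1 to HE2. This correction also moved the median of all genes, to 0.17 and -0.27. The members lay 0.33 below and 0.48 above it, compared with 0.31 and 0.55 without the correction. The trend was fitted on genes with a mean log2 CPM above 3, whereas the median of all genes also covers those below that level. Nor is it matched to the members in exon length, so these distances do not show how much of the shift goes with length. The length classes above are the closer comparison. The calls split into 6 higher and 15 lower from HB to HE1 and into 4 higher and 2 lower from HE1 to HE2. The shares of all genes after the correction were 20.0% higher and 14.2% lower in the former step and 5.28% higher and 8.41% lower in the latter, so that the 4 members called higher in HE2 were near the background. The median of the members became 0.25 from HE1 to HP and 0.14 from ES to HP, in place of 0.43 and 0.23, while that of all genes became -0.21 and -0.05. Against this same unmatched median, the members lay 0.46 above all genes from HE1 to HP with or without the correction. From ES to HP they lay 0.19 above it, compared with 0.24 without the correction.

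**Figure D4:**
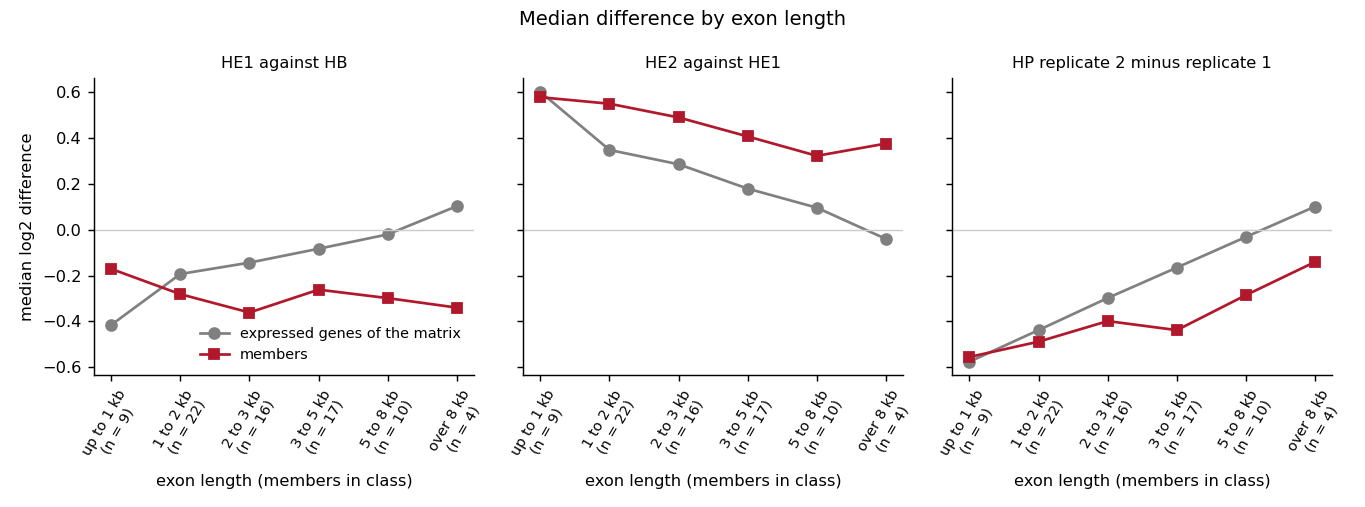
Median log2 difference (y axis) by exon length (x axis, with the number of members in each class) for HE1 against HB, HE2 against HE1 and HP replicate 2 minus replicate 1. Grey circles are the expressed genes of the matrix and red squares the members. From 1 kb upwards the members lie below the grey line from HB to HE1 and above it from HE1 to HE2, where they go from 0.55 to 0.38.

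To ask which members left the common path, the test was repeated with the summed counts of the 78 members as library size, so that a gene that follows the group has a change of 0. By this measure 18 members departed from the group from ES to HB, 9 from HB to HE1, 2 from HE1 to HE2, 0 from HE2 to HP, 4 from HE1 to HP and 28 from ES to HP. The shares over all genes were 35.1%, 27.5%, 10.2%, 0%, 22.5% and 46.6%. At least 1 departure was found for 37 of the members. Leaving out ES replicate 2 lowered this number to 18, and ES replicate 1 to 20. A departure of at least 1 log2 unit was found for Mrpl33 from ES to HB, for Mrps6 and Mrps18a from HE1 to HP and for Mrpl15, Mrps18b and Mrpl58 from ES to HP.

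The members farthest from the common path were ranked by the root mean square distance of their stage profile from the median profile. This distance had a median of 0.19 log2 units over the 78, and was 0.34 for the 12th member, Mrpl38, and 0.32 for the next, Mrpl36. The 12 members at the top were Mrps6, Mrps18a, Mrpl24, Mrpl27, Mrps18b, Mrpl15, Mrpl42, Mrpl58, Mrpl33, Mrps26, Mrps12 and Mrpl38. They fell into members high in HE1, members high in ES, members low in ES, and Mrpl24.

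**Figure D5:**
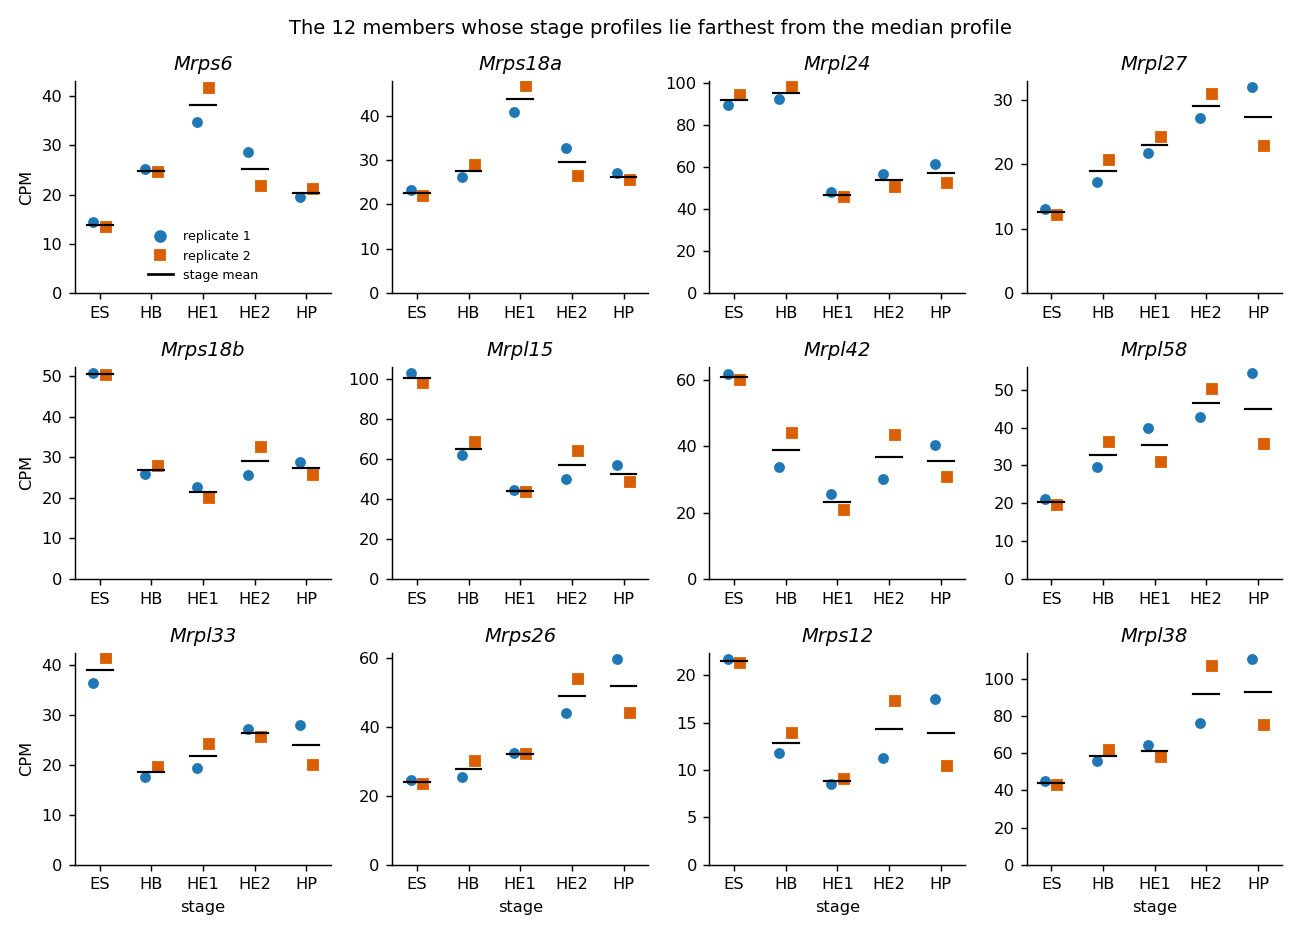
CPM (y axis, from 0) in each library of the 5 stages (x axis) for the 12 members whose stage profiles lie farthest from the median profile; circles and squares are the 2 replicates and bars their mean. Mrps6 and Mrps18a peak in HE1, Mrps18b, Mrpl15, Mrpl42, Mrpl33 and Mrps12 are highest in ES, and Mrpl58, Mrpl27, Mrps26 and Mrpl38 are lowest there.

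Mrps6 had the largest distance, of 0.57. It measured 14.4 and 13.3 CPM in ES, 25.1 and 24.6 at HB, 34.7 and 41.6 at HE1, 28.7 and 21.7 at HE2 and 19.4 and 21.1 at HP. The HE1 libraries were the highest and the ES libraries the lowest, with no overlap with any other stage. Measured against the group, Mrps6 changed by 0.92 ± 0.26 log2 units from HB to HE1 and by -1.30 ± 0.26 from HE1 to HP (adjusted p = 0.00976). Part of this gene is not its own: 159 bp of its exons are shared on the same strand with Slc5a3, which encodes the inositol transporter SMIT1, and 305 bp with Gm49711, and a fragment on several genes was counted on each. Slc5a3 was likewise highest in HE1, at 58.8 and 60.2 CPM in ES, 114 and 114 at HB, 226 and 200 at HE1, 120 and 94.3 at HE2 and 59.8 and 82.4 at HP. Its level was thus several times that of Mrps6 in each library, and the counts of the genes cannot be told apart where they overlap.

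Mrps18a was the other member with a peak in HE1, and it shares no exon with another gene on its strand. It measured 23.1 and 22.0 CPM in ES, 26.3 and 28.8 at HB, 40.8 and 46.6 at HE1, 32.6 and 26.4 at HE2 and 27.0 and 25.5 at HP. Again the HE1 libraries lay above the other 8. Against the group it changed by 0.97 ± 0.21 from HB to HE1, by -0.97 ± 0.21 from HE1 to HE2 and by -1.13 ± 0.22 log2 units from HE1 to HP. The call from HE1 to HE2 in the common scaling (adjusted p = 0.0449) was lost in 3 of the 9 alternatives, with adjusted p up to 0.133, and without 8 of the 10 libraries left out singly.

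Mrps18a belongs to 3 paralogues that all descend from the bacterial protein S18, and the others are given beside it. Mrps18b was highest in ES, with 50.8 and 50.4 CPM, and measured 25.8 and 27.9 at HB, 22.6 and 20.1 at HE1, 25.7 and 32.4 at HE2 and 28.9 and 25.7 at HP. It fell by 0.92 ± 0.16 on the log2 scale from ES to HB (adjusted p = 0.00134), with no overlap between ES and any other stage, and by 0.89 ± 0.16 from ES to HP (adjusted p = 0.00108). Its other 4 comparisons did not pass the test. Mrps18c measured 16.7 and 14.6 CPM in ES, 12.5 and 18.1 at HB, 13.7 and 12.7 at HE1, 18.9 and 23.1 at HE2 and 25.3 and 18.2 at HP. It followed the common path, with a distance of 0.14, and rose by 0.72 ± 0.24 from HE1 to HP (adjusted p = 0.0469). Of its exon bases 250, or 23.2%, are shared with Gm43511 on the same strand. In the mammalian particle the product of Mrps18a sits in the large subunit and those of Mrps18b and Mrps18c in the small one, where each has its own place. Of the 3, Mrps18a and Mrps18b are counted below as specific to mitochondria because of those places.

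Among the members high in ES, Mrpl15, a large subunit protein with a bacterial counterpart, measured 103 and 98.1 CPM in ES, 62.0 and 68.3 at HB, 44.5 and 43.3 at HE1, 50.1 and 64.1 at HE2 and 56.8 and 48.4 at HP. It fell in the first and again in the second step, by 0.63 ± 0.16 and 0.57 ± 0.16 on the log2 scale, and was 0.94 ± 0.16 log2 units lower in HP than in ES, the deepest fall of any member between these stages. The call from ES to HB was lost without either ES replicate or HB replicate 1 and that from HB to HE1 without HB replicate 2 or HE1 replicate 2, whereas the call from ES to HP held when any library was left out. Mrpl42, a protein of the mitochondrial large subunit alone, went from 61.9 and 59.9 CPM in ES to 25.5 and 20.9 at HE1, with 40.2 and 30.8 at HP. Mrpl33 went from 36.5 and 41.3 CPM in ES to 17.6 and 19.6 at HB, where it had its lowest level, and stood at 28.1 and 19.9 at HP. Mrps12, whose product lies at the decoding centre of the small subunit, measured 21.7 and 21.3 CPM in ES and 8.58 and 9.05 at HE1. Its change from ES to HP, -0.62 ± 0.27, did not pass the test (adjusted p = 0.0800), whereas its departure from the group over that span, -0.77, did (adjusted p = 0.0123).

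The members low in ES included the largest rise of the group. Mrpl58, which encodes a peptidyl-tRNA hydrolase built into the large subunit that frees stalled ribosomes, measured 21.1 and 19.7 CPM in ES, 29.6 and 36.1 at HB, 40.0 and 30.9 at HE1, 42.7 and 50.2 at HE2 and 54.3 and 35.7 at HP. It rose by 1.14 ± 0.22 log2 units from ES to HP (adjusted p = 0.00153), and all 8 libraries of the later stages lay above those of ES. Mrpl27, whose bacterial counterpart reaches towards the peptidyl transferase centre, went from 13.0 and 12.2 CPM to 32.0 and 22.9, a change of 1.12 ± 0.20. Mrps26, a small subunit protein specific to mitochondria, went from 24.5 and 23.5 CPM to 59.8 and 44.1, a change of 1.12 ± 0.18, and Mrpl38 from 44.7 and 42.9 CPM to 111 and 74.9, a change of 1.08 ± 0.21. For each of these 4 genes the call held when any library was left out.

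Mrpl24 fell in a single step between HB and HE1. It measured 89.6 and 94.0 CPM in ES, 92.4 and 98.1 at HB, 47.9 and 45.5 at HE1, 56.7 and 50.3 at HE2 and 61.3 and 52.4 at HP. The 4 earlier libraries and the 6 later ones did not overlap. The fall by 1.03 ± 0.14 on the log2 scale was called in the 9 alternatives and in each of the 10 fits that dropped a library, and against the group it was -0.73 ± 0.17 (adjusted p = 0.0141). Its later changes, 0.20 ± 0.14 from HE1 to HE2 and 0.28 ± 0.14 from HE1 to HP, did not pass the test.

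The promoters of these genes are shown because nuclear genes of mitochondrial function are known targets of a few ubiquitous factors, among them NRF1, the ETS factor GABP and YY1. The windows are those of RefSeq on GRCm38.p6, from 250 bases before to 50 after an annotated start, and 69 of the 78 members had at least one, with 75 windows in all. The letters searched, on both strands, were GCATGCGC for NRF1, CCGGAAG for an ETS site as GABP binds it, AAGATGGCG for YY1, CACGTG for an E-box, CCAAT for the CCAAT box and GGGCGG for SP and KLF factors. Matches of different motifs could overlap and were counted for each. The ETS letters stood in 26 of the member windows, or 34.7% (exact 95% confidence interval from 24.0% to 46.5%), against 15.0% of the 15438 windows of genes of the matrix and 8.86% of all 32851 windows. Those of YY1 stood in 8, or 10.7% (4.72% to 19.9%), against 2.48% and 1.40%, and those of NRF1 likewise in 8, against 4.61% and 2.71%. These intervals take the 75 windows as independent, although some of the 69 members gave more than 1, so they do not hold for genes. E-boxes were found in 9.33% of the member windows, CCAAT boxes in 40.0% and SP and KLF letters in 52.0%, against 9.36%, 37.6% and 59.1% for genes of the matrix and 7.15%, 37.4% and 35.7% for all windows. Only the bases before the start being read, the ETS share was 24.0% and the YY1 share 2.67%, against 11.7% and 0.959% for genes of the matrix, so that most of the YY1 letters lay behind the start.

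The sequences below run from 170 bases before to 30 after the start, 5′ to 3′ on the strand of the gene, with the letters of any of the 6 motifs in capitals. They are those of the 3 S18 paralogues, whose values are given above, and of Mrps6, Mrpl24 and Mrpl58, which was highest in HE1, fell at HE1 and was lowest in ES, respectively. Mrps18a is at chr17:46110834-46111033 on the plus strand, Mrps18b at chr17:35916411-35916610 on the minus strand, Mrps18c at chr5:100798589-100798788, Mrps6 at chr16:92058166-92058365, Mrpl24 at chr3:87919374-87919573 and Mrpl58 at chr11:115403582-115403781, the last 4 on the plus strand.
Mrps18a: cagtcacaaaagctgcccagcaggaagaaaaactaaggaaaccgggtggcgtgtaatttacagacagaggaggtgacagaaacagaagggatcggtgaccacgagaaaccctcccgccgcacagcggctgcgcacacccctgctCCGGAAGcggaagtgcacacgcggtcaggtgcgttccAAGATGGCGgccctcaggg
Mrps18b: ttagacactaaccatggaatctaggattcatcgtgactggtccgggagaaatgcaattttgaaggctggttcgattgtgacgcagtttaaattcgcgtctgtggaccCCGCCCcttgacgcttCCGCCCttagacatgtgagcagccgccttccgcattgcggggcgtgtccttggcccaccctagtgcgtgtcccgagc
Mrps18c: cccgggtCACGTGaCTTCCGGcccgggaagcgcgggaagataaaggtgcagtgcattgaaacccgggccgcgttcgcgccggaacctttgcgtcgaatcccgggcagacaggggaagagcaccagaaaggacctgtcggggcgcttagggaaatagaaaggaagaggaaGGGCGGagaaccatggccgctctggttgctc
Mrps6: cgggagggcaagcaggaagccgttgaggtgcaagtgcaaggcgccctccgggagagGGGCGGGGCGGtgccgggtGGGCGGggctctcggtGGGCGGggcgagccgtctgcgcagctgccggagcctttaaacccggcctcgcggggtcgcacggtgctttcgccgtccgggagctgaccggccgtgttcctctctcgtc
Mrpl24: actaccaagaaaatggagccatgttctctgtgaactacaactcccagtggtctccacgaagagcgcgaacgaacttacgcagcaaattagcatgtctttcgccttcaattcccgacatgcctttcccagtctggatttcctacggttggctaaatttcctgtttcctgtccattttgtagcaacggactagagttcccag
Mrpl58: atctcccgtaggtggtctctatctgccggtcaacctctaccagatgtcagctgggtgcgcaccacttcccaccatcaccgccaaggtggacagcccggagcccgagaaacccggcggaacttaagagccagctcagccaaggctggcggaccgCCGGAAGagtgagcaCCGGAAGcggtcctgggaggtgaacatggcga

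In these windows Mrps18a has 1 ETS match and 1 YY1 match, Mrps18b has SP and KLF letters alone, and Mrps18c has an E-box, an ETS match and an SP and KLF match. Mrps6 has 4 SP and KLF matches, of which 2 share a base, Mrpl58 has 2 ETS matches and Mrpl24 has none of the 6 motifs. These are matches of letters, and no match says only that these letters are not in this window.

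The medians of both subunits lay on the same side of 0 from HB to HE1, from HE1 to HE2, from HE1 to HP and from ES to HP, and on opposite sides in the remaining steps. From ES to HB the median change was -0.08 log2 units for the 26 small subunit genes and 0.14 for the 51 large subunit genes, and from HE2 to HP it was 0.0018 and -0.03. From HE1 to HE2 it was 0.49 and 0.43, and from HE1 to HP 0.55 and 0.42, with 9 genes called higher in each, beside 11.0% of all genes. From HB to HE1 it was -0.22 and -0.32, with 2 of 26 and 12 of 51 genes called lower, beside 14.8% of all genes. The 46 genes with a bacterial counterpart and the 31 that are specific to mitochondria had medians of -0.0092 and 0.22 from ES to HB, -0.26 and -0.33 from HB to HE1, 0.46 and 0.47 from HE1 to HE2, and 0.26 and 0.18 from ES to HP. The difference between these classes was not tested. Leaving out the 8 members that share exon bases with another gene on their strand moved the median by at most 0.03 log2 units in each of the 6 comparisons. The most affected of these 8 by share of exon length is Mrpl53, for which 695 bp, or 88.0%, are shared with Gm42688, followed by Mrps34, for which 763 bp, or 37.0%, are shared with Nme3.

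Among the other genes of mitochondrial translation, the centred median of the assembly genes and that of the aminoacyl-tRNA synthetases was also lowest in the 2 HE1 libraries. The same held for 3 further lists described below: mitochondrial transcription and DNA replication, regulators of biogenesis, and ribosome proteins without the Mrpl or Mrps stem. It did not hold for the translation factors, at -0.07 and -0.27 in HE1 and -0.08 in ES replicate 2. The 27 genes of mitochondrial ribosome assembly and rRNA modification had a median change of -0.25 log2 units from HB to HE1 and 0.31 from HE1 to HE2, with 1 higher and 4 lower in the first step and 2 higher in the second. Of all genes, 17.5% were higher and 14.8% lower in the first step and 6.12% higher in the second. From ES to HP, 5 of them rose and 4 fell, beside 24.1% and 27.5% of all genes. These shares are the background of the other lists in this comparison too. The rises were led by Mettl15, an rRNA methyltransferase of the small subunit, at 1.39 ± 0.37, and by Mrm3, one of the large subunit, at 1.14 ± 0.20, and the falls by Mettl17, an assembly factor of the small subunit, at -0.96 ± 0.21. Of the 16 mitochondrial translation factors 4 rose and 1 fell over this span: Taco1, an activator of the translation of a cytochrome oxidase subunit, rose by 1.32 ± 0.21 and Mrrf, the ribosome recycling factor, by 1.05 ± 0.20, while Gfm2, a relative of elongation factor G that acts in recycling, fell by 1.06 ± 0.18. Among the 17 mitochondrial aminoacyl-tRNA synthetases 3 rose and 4 fell, and the 3 that rose were Fars2, Wars2 and Lars2, by 1.66 ± 0.20, 1.44 ± 0.22 and 0.89 ± 0.17 log2 units.

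Of the 13 genes of mitochondrial transcription and DNA replication tested, 3 changed from ES to HP, and all 3 fell, namely Ssbp1, the single-strand binding protein, by 1.25 ± 0.16, Polrmt, the mitochondrial RNA polymerase, by 0.74 ± 0.16, and Mgme1, a nuclease, by 0.73 ± 0.18 on the log2 scale. Of the 11 regulators of mitochondrial biogenesis tested, 2 rose and 3 fell: Myc rose by 1.23 ± 0.25, from 30.9 to 72.7 CPM, whereas Mycn fell by 0.84 ± 0.17 and Pprc1, a coactivator of the PGC-1 family, by 0.90 ± 0.15. Of 5 mitochondrial ribosome proteins whose symbols lack the Mrpl or Mrps stem, Ptcd3 alone changed between ES and HP, with a fall by 0.47 ± 0.15. The 13 protein genes of mitochondrial DNA were listed with a summed count of 0 over the 10 libraries, so the transcripts that this ribosome translates cannot be followed here.

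The cytosolic ribosomal proteins and the OXPHOS subunits, whose medians were also lowest in HE1 on average, gave the following counts beside those of the members. From HB to HE1, 55 of the 83 cytosolic ribosomal protein genes fell, with a median of -0.74 log2 units, against 14 of 78 members and -0.28, while the median of the OXPHOS subunit genes was -0.33, with 7 lower and 1 higher. From HE1 to HE2 the medians of the cytosolic ribosomal proteins, the OXPHOS subunits and the members lay close together, at 0.51, 0.55 and 0.47, with 2, 5 and 10 genes called higher. From HE1 to HP they were 0.42, 0.49 and 0.43, with 0, 13 and 18 called higher. Of all genes, 14.8% were lower in HE1 than in HB, 6.12% higher in HE2 than in HE1 and 11.0% higher in HP than in HE1. From ES to HP, 20 of the cytosolic ribosomal protein genes fell, with a median of -0.31, and of the 79 OXPHOS subunit genes 15 fell and 5 rose, with a median of 0.00, whereas 22 members rose and 10 fell, with a median of 0.23. The difference between the families was not tested.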

How the data were processed

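Nuclear RNA, depleted of rRNA, was sequenced from 10 libraries in 5 groups of 2. Per the labels and file headers, the authors trimmed the reads with Trimmomatic, aligned them to mm10 with HISAT2 (2.2.1) and deposited raw counts of fragments per gene made with featureCounts (2.0.1) on exons of Ensembl release 102, reverse-stranded, without fragments mapped to several places and with a fragment on several genes counted on each. They also deposited a matrix with 1 expression score per gene and stage, a mean over libraries, which served here to choose the members. From the counts, edgeR (4.0.16, R 4.3.3) was fitted to the 10 libraries with stage as the only term, TMM scaling, filterByExpr and glmQLFTest, and p-values were adjusted over 22596 genes. Log2 CPM used a prior count of 2. Most genes were named by a rule: the 12 members farthest from the median profile, the 3 largest called rises and falls per comparison, departures from the group of at least 1 log2 unit, the extremes per kilobase, the S18 paralogues, and up to 3 genes per other list. Outside the rule, Mrpl11 and Mrps35 were named as examples, Mrpl53 and Mrps34 for shared exons and Mrps7 for a 2-fold change, among others. Members and lists were chosen with earlier results of these data known. In simulated data with independent libraries, edgeR recovered 182 of 200 genes changed by 2 log2 units from ES to HB, with 9 false calls. The simulation did not examine how well changes as small as those of the members are called, nor shifts shared by a whole library. DESeq2 (1.42.0) and limma-voom (limma 3.58.1), other scalings and filters, a replicate block and each library left out were tried as alternatives.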

Additional observations from a re-analysis of the deposited data

How the results depend on the processing

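With 2 libraries per stage, the counts of members called moved far more with the processing than the medians did. The direction was followed through the alternatives for most called changes of the named members, and none of those followed was reversed. Some were not followed, among them Mrps7 from ES to HP, Mrps18c from HE1 to HP and Mrpl12 from HB to HE1. With limma-voom, DESeq2, RLE size factors, library totals, no filter, the genes of the matrix alone or the 4 libraries compared, the median change of the members stayed within the spread between replicates of its value in each of the 6 comparisons, and the exon length correction moved it further in one of them, from HE1 to HE2 (0.22 in place of 0.47). It also lowered the median from 0.43 to 0.25 from HE1 to HP and from 0.23 to 0.14 from ES to HP, and the median of all genes to -0.21 and -0.05.

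From ES to HB, 7 members were higher and 5 lower. The numbers higher were 15 with library totals, 13 with the genes of the matrix alone, 25 with the 4 libraries alone, 16 with the exon length trend removed and 0 at 2-fold. The numbers lower were 8 with DESeq2, 8 without a filter, 13 with the 4 libraries, 10 with the length trend removed and 1 at 2-fold. From HB to HE1, 2 were higher and 14 lower, against 6 higher with the length trend removed, 1 higher without the members that overlap other genes, and 0 higher and 2 lower at 2-fold. From HE1 to HE2, 10 were higher and 1 lower. The numbers higher were 19 with DESeq2, 6 with library totals, 26 without a filter, 0 with the 4 libraries, 4 with the length trend removed and 0 at 2-fold. The number lower was 2 with limma-voom, DESeq2, RLE size factors, the genes of the matrix or the length trend removed, and 0 without a filter, with the 4 libraries or at 2-fold. From HE1 to HP, 18 were higher and 2 lower, against 28 higher without a filter, 5 higher with the 4 libraries, 0 higher and 0 lower at 2-fold, and 1 lower without the overlapping members. From ES to HP, 22 were higher and 10 lower, against 5 and 0 at 2-fold. Fewer genes, samples or a stricter threshold account for some of these by construction, and the cause of the others was not tested.

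The replicate numbers 1 and 2 are shared by the stages, but the labels tie them to no culture or batch, and the deviations of same-numbered libraries correlated between -0.31 and 0.13 over 22596 genes. With the replicate number as a block, the number of members called was 3 lower from ES to HB and 0 higher and 0 lower from HE1 to HE2, and it stayed within 1.5 times the count given above in the other comparisons.

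When one library was left out, the members called higher numbered 1 to 9 from ES to HB, 0 to 2 from HB to HE1, 0 to 30 from HE1 to HE2, 0 to 32 from HE1 to HP and 7 to 23 from ES to HP. Those called lower numbered 2 to 9, 4 to 19, 0 to 2, 0 to 2 and 3 to 12 in the same order. The median lay between 0.02 and 0.22, -0.49 and -0.19, 0.29 and 0.62, 0.26 and 0.66, and -0.00742 and 0.42 in that order, and between -0.26 and 0.18 for HP against HE2. Members that departed from the group numbered 18 to 40, and those with any change over the stages 25 to 50. Of the promoter motifs, the ETS share of 34.7% was 24.0% and the YY1 share of 10.7% was 2.67% before the start alone, where the shares for genes of the matrix were 11.7% and 0.959%. The lowest count of a member in a library was 106, and no fit at a lower or equal depth was run.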
